A study of Mus musculus with 6 samples.

Results

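Lymphoid tissue is built around a small set of signals, and 10 mouse genes of that set were followed here: the chemokines Ccl21a, Ccl19 and Cxcl13, the receptors Cxcr5, Ccr7 and Cr2, the venule ligands Glycam1 and Madcam1, and the lymphotoxins Lta and Ltb. They were chosen by name, for their known role in lymph nodes, out of 32245 gene symbols in the deposited matrices, and all 10 had at least 1 unique molecular identifier (UMI, 1 counted RNA molecule) in nuclei that passed filtering. The study measured RNA in nuclei of mouse subcutaneous white adipose tissue by droplet-based single-nucleus sequencing, with 3 libraries of each genotype. The flox controls were GPSM1f/f mice, which carry loxP sites around Gpsm1 (written GPSM1 in the labels), and the knockouts were GPSM1ΔTreg mice, whose name says that the gene is removed in regulatory T cells (Treg cells). Mice of both genotypes were on a high-fat diet (the sample labels give 12 weeks, and the protocol a range of durations) that began at an age of 7 weeks, and nuclei were purified on a sucrose gradient and sorted by DAPI. The sources used here do not give the promoter that drives the recombinase, the sex of the mice, or whether the dissected fat held a lymph node.

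In a lymph node, stromal cells called reticular cells secrete Ccl21a and Ccl19, which draw T cells and dendritic cells that bear the receptor Ccr7, while follicular stromal cells secrete Cxcl13, which draws B cells that bear Cxcr5. Lymphocytes in turn present lymphotoxin, the product of Lta and Ltb, to the lymphotoxin beta receptor on stroma, and this signal runs through the noncanonical arm of the transcription factor NF-kB and keeps chemokine production going. Lymphocytes enter the node across high endothelial venules, whose lining displays ligands such as Glycam1 and Madcam1, and follicular dendritic cells hold antigen through the complement receptor encoded by Cr2.

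For 5 of these genes the lymphoid-stroma-like nuclei described further on had the highest mean level of any class. These means are over libraries with at least 20 nuclei of a class. For Cr2 the lead over B-cell-like nuclei (761 against 668 CPM) was within the spread. It also leaves out knockout 2, which had 19 lymphoid-stroma-like nuclei and the lowest level of Cr2 in them. The upstream sequences of 4 of the 5 genes are shown because NF-kB is the known link between lymphotoxin and this stroma. The other gene, Ccl19, has 38 upstream bases outside its annotated gene. The sequences are from RefSeq on the mouse assembly GRCm38.p6, run 5′ to 3′ on the strand of the gene and end at the base before the RefSeq start, except that of Ccl21a, which ends before the first base of the GENCODE gene. Capitals mark every match to GGGNNNNNCC on either strand, a general form of the NF-kB site. The spans are chr5:95956689-95956938 (plus strand) for Cxcl13, chr10:79664309-79664558 (plus strand) for Madcam1, chr1:195176720-195176969 (minus strand) for Cr2 and chr4:42773994-42774241 (minus strand) for Ccl21a.
Cxcl13: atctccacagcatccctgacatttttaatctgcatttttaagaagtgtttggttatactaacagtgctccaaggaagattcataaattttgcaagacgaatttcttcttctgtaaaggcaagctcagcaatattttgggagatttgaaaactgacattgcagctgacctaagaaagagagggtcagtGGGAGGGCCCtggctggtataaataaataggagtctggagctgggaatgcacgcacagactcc
Madcam1: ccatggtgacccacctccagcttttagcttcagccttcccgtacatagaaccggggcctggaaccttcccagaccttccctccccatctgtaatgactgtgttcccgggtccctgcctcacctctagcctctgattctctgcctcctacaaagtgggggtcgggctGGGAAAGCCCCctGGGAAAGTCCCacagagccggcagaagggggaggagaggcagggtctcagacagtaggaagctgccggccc
Cr2: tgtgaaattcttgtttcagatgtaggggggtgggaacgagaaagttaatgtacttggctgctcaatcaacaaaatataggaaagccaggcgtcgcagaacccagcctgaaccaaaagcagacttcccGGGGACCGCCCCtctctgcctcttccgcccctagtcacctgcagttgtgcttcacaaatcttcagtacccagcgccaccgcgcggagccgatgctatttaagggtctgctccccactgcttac
Ccl21a: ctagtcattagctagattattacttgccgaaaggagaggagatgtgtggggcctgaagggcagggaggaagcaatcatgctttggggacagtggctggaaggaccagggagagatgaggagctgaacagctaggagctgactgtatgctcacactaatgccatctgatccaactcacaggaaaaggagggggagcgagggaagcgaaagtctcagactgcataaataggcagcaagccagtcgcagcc

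The match in Cxcl13 lies 63 to 54 bases before the start. Madcam1 has 2 stretches of overlapping matches, 84 to 74 and 71 to 61 bases before its start, and Cr2 has 1 stretch, 123 to 112 bases before its start. No match lies in the 248 bases shown for Ccl21a, which says only that these letters are not in this window. Of the 8 members with an entry in the promoter table, 6 hold a match within 250 upstream bases, as do 12261 of 27025 promoters of that length in the table (45.37%), so the matches are a description of these sequences and not a site shown to be used. Cxcr5 and Ccr7 had no entry.

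The deposited matrices held between 38857282 and 55342903 UMIs per library, and each control was deeper than each knockout. After filtering, 56223 of 65162 barcodes were kept, with 9114 to 9730 nuclei per library and median depths of 2473 to 3188 UMIs per nucleus among controls, against 2052.5 to 2588 among knockouts. No library was a copy of another: libraries of the same group differed with a chi-square per degree of freedom of 27.1 to 66.1 over genes, and any pair shared 24 to 44 cell barcodes. Nuclei were clustered without the 10 genes, and clusters were named from marker genes, so that "-like" marks a class that rests on markers alone. B-cell-like nuclei made up 2.02, 1.03 and 5.04% of flox controls 1, 2 and 3 and 38.4, 12.3 and 19.0% of knockouts 1, 2 and 3, and T-cell-like nuclei 2.23, 1.15 and 1.84% against 13.4, 4.18 and 8.29%. The targeted gene, Gpsm1, had 40.01, 50.1 and 17.9 CPM in T-cell-like nuclei of controls 1, 2 and 3 against 22.7, 21.3 and 20.8 CPM in those of knockouts 1, 2 and 3, where CPM are UMIs per 1e6 UMIs of the same nuclei, so the groups overlapped. T-cell-like nuclei with a UMI of the Treg gene Foxp3 numbered 6, 3 and 3 against 35, 7 and 13 and held 0, 1 and 0 against 0, 0 and 2 UMIs of Gpsm1, too few to check the labels. Flox control 3 stood apart from the other controls by a shallow adipocyte-like cluster that held 2896 of its nuclei. The labels give 3 mice per genotype and do not tie each library to a mouse, so p-values here measure only the spread between these libraries.

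Across the summed nuclei of each library, 9 of the 10 genes lay higher in every knockout library than in every control library, beside 25.7% of the 19276 genes tested. None of the 9 genes passed edgeR's quasi-likelihood test after Benjamini-Hochberg adjustment over all genes (0 of 9, beside 0.0415% of all genes called in either direction and 0.00519% called higher), and all 9 had an unadjusted p under 0.05, beside 28.5% of all genes. DESeq2 called all 9, beside 18.2% of all genes. Ccl19 and Glycam1 passed the filter on low counts before these tests only with the knockout libraries counted, where they are high. Their part in these counts is therefore no support. Levels here are CPM of the summed nuclei, in which fewer nuclei of a type and less RNA per nucleus cannot be told apart. The share of B-cell-like and T-cell-like nuclei and their markers moved with these levels in the same libraries. The 9 B-cell markers summed to 158, 142 and 490.4 CPM in controls 1, 2 and 3, against 2876, 747 and 1816 CPM in knockouts 1, 2 and 3, the 9 T-cell markers to 35.2, 21.3 and 50.2 against 452, 102 and 379 CPM, and every marker of both lists was higher in every knockout library; their part in the whole-tissue results was not tested.

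**Figure D1:**
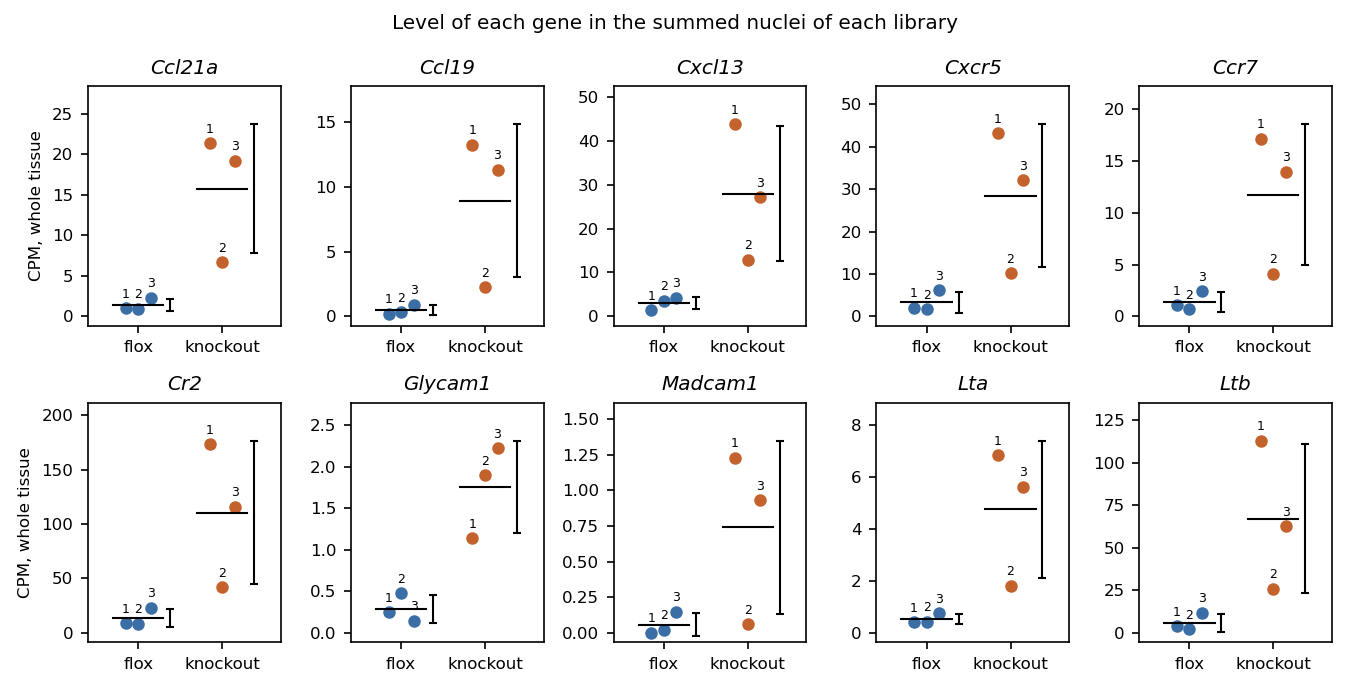
Level of each of the 10 genes in CPM of the summed kept nuclei (vertical axes, 1 panel per gene, each with its own linear scale) in the 3 flox control and 3 knockout libraries (points numbered by library), with the group mean (horizontal line) and 1 SD either way (error bar). For every gene but Madcam1 the 3 knockout points lie above the 3 control points, and knockout 2 is the lowest knockout for each gene except Glycam1.

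Ccl21a (chr4:42772860-42773993 in the GENCODE annotation of mm10, minus strand), the reticular-cell chemokine that guides Ccr7-bearing cells, stood at 1.0, 0.952 and 2.28 CPM in flox controls 1, 2 and 3, against 21.4, 6.69 and 19.2 CPM in knockouts 1, 2 and 3. The groups did not overlap, and knockout 2 was nearest to the controls. Its log2 fold change was 3.41 (SE 0.564, edgeR adjusted p = 0.0577). The files hold a second identifier under the same symbol, with 0 UMIs in every library, and the near-identical copies Ccl21b and Ccl21c also had 0 UMIs, so reads that fit several copies may be missing from the count.

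Ccl19 (chr4:42754525-42756577, minus strand), the second ligand of Ccr7, had 0.188, 0.310 and 0.907 CPM in the controls, against 13.3, 2.23 and 11.3 CPM in the knockouts, a log2 fold change of 4.19 (SE 0.857, edgeR adjusted p = 0.0603). Its second identifier was likewise at 0 UMIs in every library.

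Cxcl13 (chr5:95956951-95961068, plus strand), the follicle chemokine, had 1.42, 3.52 and 4.22 CPM in the controls, against 43.8, 12.9 and 27.2 CPM in the knockouts, a log2 fold change of 3.11 (SE 0.572, edgeR adjusted p = 0.0594). For both Ccl19 and Cxcl13 the lowest knockout, knockout 2, lay above the highest control, flox control 3.

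The receptors showed the same order of groups. Cxcr5 (chr9:44511787-44561877, minus strand), the receptor for Cxcl13, had 2.02, 1.63 and 6.18 CPM in the controls, against 43.2, 10.2 and 32.1 CPM in the knockouts (log2 fold change 3.05, SE 0.713, edgeR adjusted p = 0.0652). Ccr7 (chr11:99144196-99155077, minus strand), the receptor for Ccl21a and Ccl19, had 1.06, 0.662 and 2.45 CPM against 17.2, 4.10 and 14.0 CPM (3.00, SE 0.683, adjusted p = 0.0625). Cr2 (chr1:195136811-195176716, minus strand), which binds fragments of complement C3 on B cells and follicular dendritic cells, had 8.63, 8.42 and 23.0 CPM against 173.5, 41.9 and 115.7 CPM (2.97, SE 0.643, adjusted p = 0.0616). Flox control 3 was the highest control for all 3 receptors, and the groups did not overlap.

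The lymphotoxin genes lie next to each other on chromosome 17, Ltb at chr17:35194439-35196320 (plus strand) and Lta at chr17:35203165-35205351 (minus strand). Lta, which also forms a soluble homotrimer, had 0.417, 0.434 and 0.760 CPM in the controls, against 6.86, 1.81 and 5.63 CPM in the knockouts (log2 fold change 3.07, SE 0.554, edgeR adjusted p = 0.0594). Ltb, which anchors the lymphotoxin trimer in the membrane, had 3.96, 1.97 and 11.7 CPM against 112.9, 26.0 and 62.6 CPM (3.44, SE 0.807, adjusted p = 0.0655). Both genes ran in the same order over the libraries within the knockouts, with knockout 1 highest and knockout 2 lowest.

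The venule ligands were the rarest of the 10. Glycam1 (chr15:103562759-103565081, minus strand), a mucin-like glycoprotein of the venule lining, had 0.25, 0.476 and 0.147 CPM in the controls, against 1.14, 1.90 and 2.22 CPM in the knockouts (log2 fold change 2.47, SE 0.475, edgeR adjusted p = 0.0594). Madcam1 (chr10:79664559-79668537, plus strand), which binds the integrin alpha4beta7, was too low for the test, with 0, 1 and 6 UMIs in controls 1, 2 and 3, against 41, 2 and 33 UMIs in knockouts 1, 2 and 3. Its groups overlapped, because knockout 2 lay below flox control 3. Pooled over the libraries of each group it had 7 UMIs among controls against 76 among knockouts, a ratio of 14.6 per UMI sequenced (95% exact interval 6.75 to 37.5, counting error only, as for every interval here).

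Knockout 2 decided whether the whole-tissue test was passed. Without it, edgeR called all 10 genes, Madcam1 included, beside 17.4% of all genes, with adjusted p-values from 0.00844 for Lta to 0.0356 for Glycam1. There Madcam1 passed the filter on low counts only through the remaining knockouts, where it is high, so its call is no support. Leaving out any other single library left all of them uncalled, with 3774 to 4834 genes at an unadjusted p under 0.05. Without the shallow adipocyte-like cluster, left out after seeing the data, Ccl21a passed (log2 fold change 3.76, edgeR adjusted p = 0.0463) and the other 8 tested genes did not. Over all genes, 82 of 19074 were called higher there and 195 lower, against 1 and 7 of 19276 with that cluster in. Scaling by library totals in place of TMM factors moved the median log2 fold change of all genes from 0.01 to 0.10 and called 0 of the 9.

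Set against the B-cell markers of the same library, 4 of the 10 genes still lay higher in every knockout than in every control, beside 0.337% of all genes. The marker sums were themselves higher in every knockout library, which lowers this ratio for any gene that did not rise with them. The 0.337% is therefore small by construction and is no measure of an excess among the 10 genes. Per 100 UMIs of the 9 markers, Ltb had 2.51, 1.38 and 2.39 UMIs in controls 1, 2 and 3, against 3.93, 3.48 and 3.45 in knockouts 1, 2 and 3. Cxcr5 had 1.28, 1.15 and 1.26 against 1.50, 1.36 and 1.77, Ccl21a 0.634, 0.669 and 0.465 against 0.744, 0.896 and 1.06, and Ccl19 0.119, 0.218 and 0.185 against 0.461, 0.299 and 0.624 (exact two-sided permutation p = 0.1 for each of the 4, the smallest that 3 against 3 libraries can give). The groups overlapped for the other 6. Cr2, for one, had 5.47, 5.91 and 4.70 UMIs per 100 in the controls, against 6.04, 5.61 and 6.37 in the knockouts.

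A nucleus with at least 1 UMI of any of the 10 genes is called a carrier here. Carriers made up 6.68, 6.57 and 11.9% of flox controls 1, 2 and 3 and 48.4, 17.7 and 31.4% of knockouts 1, 2 and 3, or 11638 nuclei in all. By single gene, the share of carriers was higher in every knockout library than in every control for 9 of the 10, beside 4.05% of all genes tested, with Madcam1 again the exception. In nuclei with at least 1000 genes it was so for 5 of the 10, a count for which the share over all genes is not given. Over all kept nuclei, the share of carriers of Ltb was 1.64, 0.878 and 4.20% against 25.8, 6.82 and 14.9%, and that of Cxcl13 0.452, 1.09 and 0.676% against 2.54, 2.17 and 1.86% (exact two-sided permutation p = 0.1 for both). Because depths differed, each nucleus was also thinned to 1000 UMIs, which left out 461 to 986 nuclei of each library except flox control 3, where it left out 1628. The thinned shares were 0.771, 0.451 and 2.17% against 16.6, 3.85 and 7.68% for Ltb and 0.170, 0.497 and 0.312% against 1.68, 1.08 and 1.18% for Cxcl13, and the groups were apart for all 10 genes, beside 16.6% of all genes thinned alike. For Madcam1 this rests on 1 random draw, with 0, 0 and 0 carriers in controls 1, 2 and 3 against 12, 1 and 7 in knockouts 1, 2 and 3. A single nucleus of knockout 2 thus sets its groups apart.

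The genes fell into those carried by stroma or vessels and those carried by lymphocytes, as the plot of UMIs by class shows. A cluster of 271 nuclei carried 64.8% of the 1806 UMIs of Ccl21a, 78.8% of the 980 UMIs of Ccl19, 59.7% of the 3267 UMIs of Cxcl13 and 77.1% of the 83 UMIs of Madcam1, while it made up 0.482% of all nuclei. It is called lymphoid-stroma-like because all 9 of its class's markers, none of which is among the 10 genes, were at least 2-fold above their mean over the remaining clusters; the mural markers did so for 6 of 8, and Pcdh15, Robo2 and Csmd1 led the cluster. Among those markers, Tnfsf11, the ligand of the receptor RANK, had 306 CPM here and 0.503 CPM in mural-like nuclei, and Bst1 206 and 1.51 CPM, while the mural marker Notch3 had 263 and 1682 CPM. The mural marker Myh11 was closer, at 475 and 1059 CPM, with a UMI in 54.6% of nuclei here and 56.0% of mural-like nuclei. The marker Pdpn was lower here (48.6 CPM) than in nuclei like adipose stem and progenitors, the ASPC-like class (95.8 CPM).

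**Figure D2:**
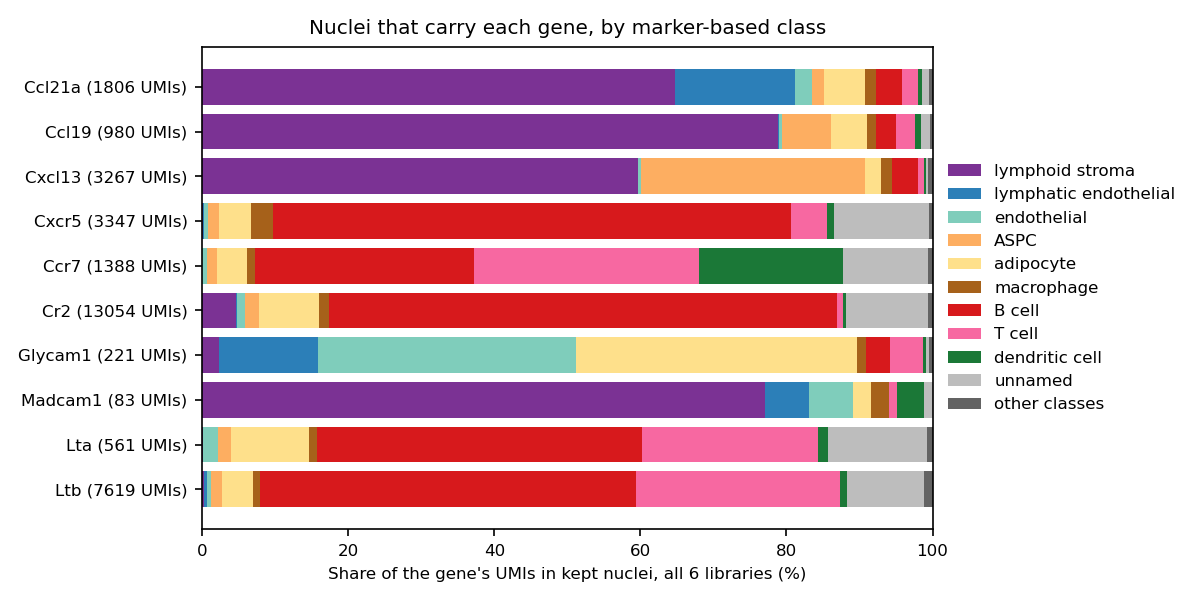
Share of each gene's UMIs in kept nuclei of all 6 libraries (horizontal axis, %) by marker-based class (colours), 1 bar per gene. The lymphoid-stroma-like class holds 59.7 to 78.8% of the UMIs of Ccl21a, Ccl19, Cxcl13 and Madcam1, B-cell-like nuclei hold 69.5 and 70.9% of those of Cr2 and Cxcr5, and Ccr7, Lta, Ltb and Glycam1 are split over several classes.

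These lymphoid-stroma-like nuclei were found in 0, 0 and 33 of the nuclei of flox controls 1, 2 and 3 and in 144, 19 and 75 of those of knockouts 1, 2 and 3. Counts of 0 in the 9285 and 9114 nuclei of flox controls 1 and 2 allow shares of up to about 0.0323 and 0.0329%, taken as 3 divided by the number of nuclei. The nuclei of flox control 3 were shallow, with a median of 1122 UMIs against 3375.5, 2549 and 3696 in the knockouts. With nuclei in a single control library, levels inside the class allow no test between the groups.

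Within the class, Ccl21a stood at 518 CPM in flox control 3 and at 859, 1390.3 and 1777 CPM in knockouts 1, 2 and 3. Ccl19 had 305 CPM against 649.7, 957 and 1029 CPM. Both chemokines were thus highest in knockout 3 and lowest in the single control, where they rest on 34 and 20 UMIs.

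Cxcl13 was ordered differently, at 1249.7 CPM in flox control 3 and at 2223, 650.0 and 1792 CPM in knockouts 1, 2 and 3, with 36 UMIs behind the value of knockout 2. Cr2 stood at 777 CPM in flox control 3 and at 307, 54.2 and 1199 CPM in the knockouts. In flox control 3 it was found in 24 of 33 such nuclei, and in knockout 2 in 2 of 19. Single nuclei held up to 121 UMIs of Cr2, while B-cell-like nuclei held at most 30.

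Over the classes with at least 20 nuclei in a library, the mean level of Ccl21a was 1051 ± 651 CPM in lymphoid-stroma-like nuclei (SD, n = 3 libraries) and 430.2 ± 362 CPM in lymphatic-endothelial-like nuclei (n = 5), neighbours in the order that do not differ beyond their spread, and then 7.37 ± 8.99 CPM in endothelial-like nuclei (n = 6). Ccl19 dropped from 661 ± 362 CPM in lymphoid-stroma-like nuclei to 4.58 ± 4.31 CPM in dendritic-cell-like nuclei (n = 3 for both). Cxcl13 dropped from 1755 ± 488 CPM (n = 3) to 31.1 ± 51.6 CPM in NK-cell-like nuclei and 27.7 ± 22.9 CPM in ASPC-like nuclei (n = 6 for both), which differ by less than their spread. The step below the first class exceeded the spread between libraries for Ccl19 and Cxcl13.

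The 3 chemokines were not spread evenly over the 271 nuclei. Ccl21a was found in 109 and Ccl19 in 117, and 86 carried both, which is 78.9% of the nuclei with Ccl21a and 73.5% of those with Ccl19. Of the nuclei without Ccl21a, 19.1% had Ccl19. Cxcl13 was found in 137 nuclei, but in 22.9% of those with Ccl21a and in 69.1% of those without it. In all, 91 nuclei had Cxcl13 and neither Ccr7 ligand, 94 had a Ccr7 ligand and no Cxcl13, and 15 had all 3.

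Some other genes lay mostly with 1 side. Tnfsf11, a marker of marginal reticular cells under the node capsule, was in 81 nuclei, 82.7% of which had Cxcl13 and 13.6% Ccl21a. Madcam1 was in 37 nuclei of the class, 75.7% with Cxcl13 and 27.0% with Ccl21a. Il7, the T-cell survival factor of reticular cells, was in 79 nuclei, 59.5% of which had Ccl21a and 29.1% Cxcl13. Grem1, a secreted BMP antagonist, was in 42 nuclei, with 69.0 and 38.1%. Bst1 did not lie with either, since 55.6% of its 117 nuclei had Ccl21a and 56.4% Cxcl13. Cr2 was in 62 nuclei, in 24.8% of those with Cxcl13 and 20.9% of those without it, and in 11.01% of those with Ccl21a and 30.9% of those without it. These shares are descriptions over nuclei of 4 libraries, in which depth per nucleus raises every share, and carry no test.

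**Figure D3:**
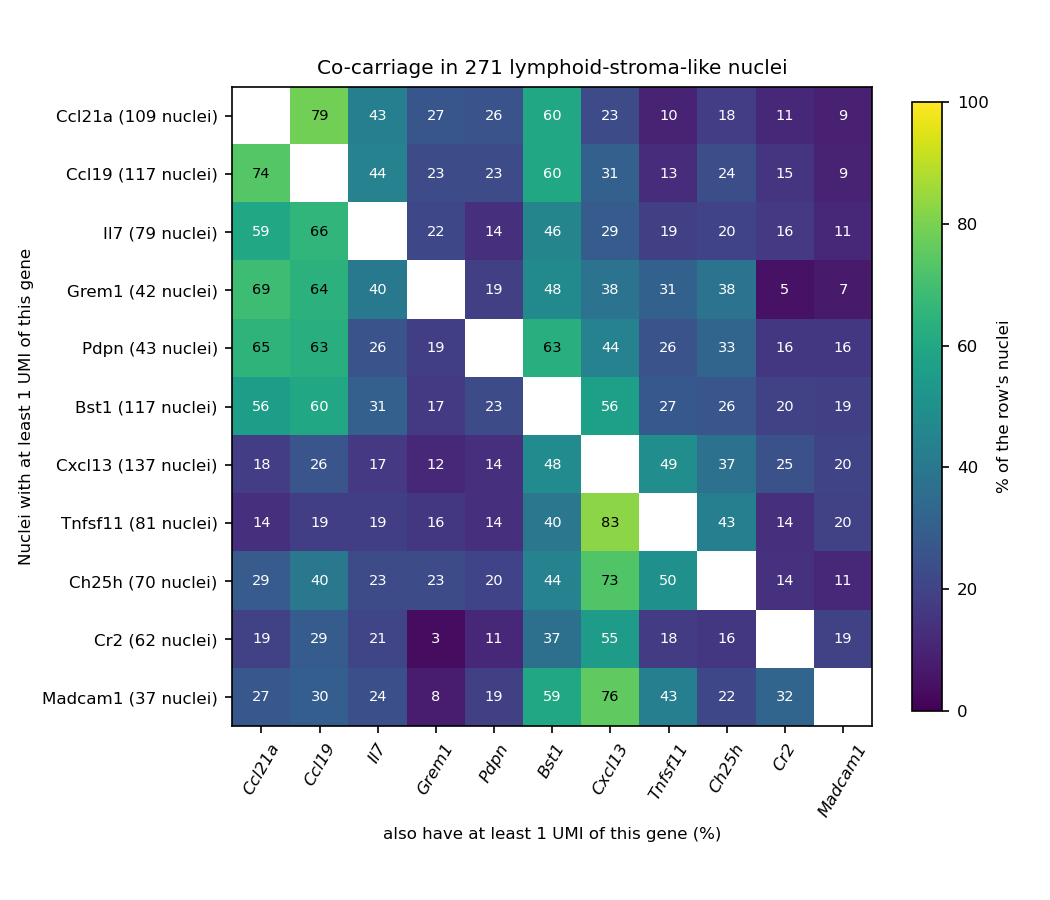
Co-carriage in the 271 lymphoid-stroma-like nuclei: of the nuclei with at least 1 UMI of the gene in the row, the share (%) that also have at least 1 UMI of the gene in the column. Ccl21a and Ccl19 share 78.9 and 73.5% of their nuclei with each other, while 22.9% of the nuclei with Ccl21a have Cxcl13 and 82.7% of those with Tnfsf11 do.

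Cxcl13 was also carried by ASPC-like nuclei, the fibroblast-like precursors of adipocytes. They held 1005 UMIs of it, 30.8% of the total, in 433 nuclei, up to 26 UMIs in 1 nucleus. In flox controls 1 and 2, where no lymphoid-stroma-like nucleus was found, this class held 51 of 68 and 153 of 170 UMIs of the gene. Its level in ASPC-like nuclei was 6.70, 20.6 and 12.6 CPM in controls 1, 2 and 3, against 13.0, 58.0 and 55.6 CPM in knockouts 1, 2 and 3, and knockout 1 lay below flox control 2. The log2 fold change was 1.67 (SE 0.667, edgeR adjusted p = 0.450). ASPC-like nuclei with at least 3 UMIs of Cxcl13 numbered 3, 16 and 4 in the controls, against 4, 39 and 35 in the knockouts.

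The ASPC-like nuclei with Cxcl13 differed in other genes from those without it, given here as a description over pooled nuclei. The largest ratios, with 20 CPM added to both sides, were those of Dkk2, which encodes a Wnt antagonist (493 against 112 CPM), the complement gene C4b (481 against 141 CPM), the estrogen sulfotransferase gene Sult1e1 (285 against 80.1 CPM), Plac8 (191 against 49.3 CPM) and Prg4, which encodes the lubricant lubricin (148 against 37.3 CPM). Nuclei with Cxcl13 were deeper than the others in each library, for instance 4083 against 2957 UMIs in flox control 1 and 2750 against 2716 in knockout 3 (medians).

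**Figure D4:**
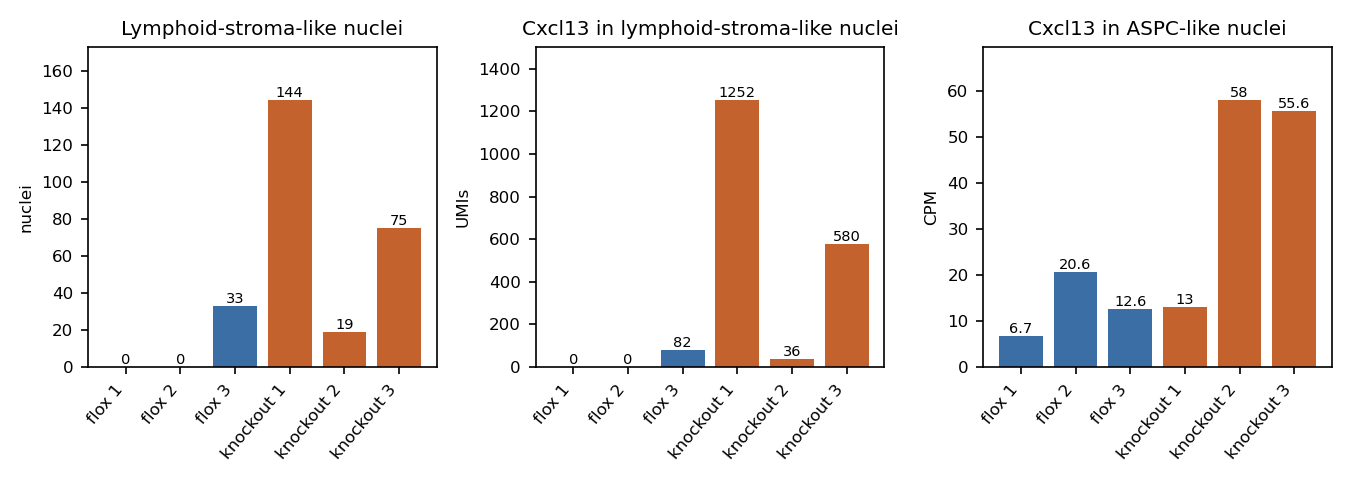
Cxcl13 by library in its 2 main classes, with bars from 0 for the number of lymphoid-stroma-like nuclei, the Cxcl13 UMIs in them and its level in ASPC-like nuclei (CPM). Lymphoid-stroma-like nuclei gave 0, 0 and 82 UMIs in flox controls 1, 2 and 3 against 1252, 36 and 580 in knockouts 1, 2 and 3, while the level in ASPC-like nuclei was highest in knockout 2 (58.0 CPM).

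Ccl21a was also found in 2 vessel classes. Lymphatic-endothelial-like nuclei, whose vessels use this chemokine to draw in dendritic cells, carried 295 UMIs of it, with 38, 44 and 7 UMIs in controls 1, 2 and 3, against 95, 95 and 16 in knockouts 1, 2 and 3. In flox controls 1 and 2 this class held 38 of 48 and 44 of 46 UMIs of the gene. The level in the class was 476, 1944.5 and 145 CPM in the controls, against 431, 1003 and 95.4 CPM in the knockouts, so the groups overlapped and the largest value was that of a control with 9 such nuclei. The number of these nuclei was 27, 9 and 20 in the controls, against 69, 38 and 56 in the knockouts, too few in 1 library for the test.

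In endothelial-like nuclei Ccl21a rose. It had 0, 0 and 1 UMI in controls 1, 2 and 3 (0, 0 and 0.441 CPM) and 5, 19 and 17 UMIs in knockouts 1, 2 and 3 (7.22, 16.1 and 20.5 CPM). The knockout UMIs came from 17 nuclei, and the groups did not overlap, beside 7.71% of the genes of the class. The log2 fold change was 5.95 (SE 0.759, edgeR adjusted p = 0.0111), 1 of 2 members tested in this class, beside 0.114% of all genes called there in either direction and 0.0857% called higher. The gene passed the filter on low counts through the knockout libraries alone, where it is high, so the call is no support beyond the counts themselves. Pooled counts gave a ratio of 96.2 (95% exact interval 16.3 to 3890). The call was lost without flox control 2 (adjusted p = 0.0719), flox control 3 (0.0531) or knockout 2 (0.113) and without removal of doublets (0.164). With classes by marker score, and in nuclei with at least 1000 genes, the gene had too few counts for the test, and DESeq2 gave no adjusted p. Ccl21a was not particular to this class, with a UMI in 0.454% of endothelial-like, 0.526% of adipocyte-like, 0.660% of B-cell-like and 1.18% of T-cell-like nuclei, at unlike depths. After thinning to 1000 UMIs, its share was also higher in every knockout in ASPC-like, B-cell-like and macrophage-like nuclei. It overlapped in T-cell-like and adipocyte-like nuclei. B-cell markers in the endothelial-like class summed to 46.2, 17.1 and 107 CPM against 248.5, 54.3 and 125 CPM. Lymphoid-stroma markers summed there to 232, 142 and 134 against 348, 281 and 318 CPM. The part of both lists in this result was not tested.

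Glycam1 was concentrated in a handful of those vessel nuclei. Endothelial-like nuclei of the controls had 0 UMIs of it and those of knockouts 1, 2 and 3 had 1, 34 and 43. Per UMI of the class this is 61.0-fold higher when the controls are set at 3 UMIs over the group. The lower limit of the exact interval for the counts as they are is 48.4. That limit treats UMIs as independent, although most of them lay in a few nuclei. The 9 nuclei with at least 3 UMIs of Glycam1 were all in knockout libraries, 3 in knockout 1, 3 in knockout 2 and 3 in knockout 3. Of these, 4 were endothelial-like and held 76 UMIs, 5 to 36 each. Each of the 4 also had UMIs of Ccl21a, Enpp2, which encodes the enzyme autotaxin made by high endothelial venules, and the endothelial gene Pecam1. Enpp2 was not particular to them, with a UMI in 26.3% of ASPC-like and 24.0% of mural-like nuclei. Of other venule genes, these 4 nuclei of knockouts 2 and 3 held 1, 0, 0 and 1 UMI of Fut7, 0, 1, 0 and 0 of Chst4, and 0 each of Madcam1. Another 4 were lymphatic-endothelial-like, each with a UMI of Prox1, the lymphatic transcription factor, and none with Ccl21a, and 1 was T-cell-like.

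A larger number of Glycam1 carriers held 1 or 2 UMIs. Adipocyte-like nuclei held 85 of its 221 UMIs in 83 nuclei, at a median depth of 6219.5 UMIs, and the share of carriers was 0.472, 0.805 and 0.104% in controls 1, 2 and 3, against 0.372, 0.801 and 0.749% in knockouts 1, 2 and 3. All of the 41 control UMIs of the gene in whole tissue came from adipocyte-like nuclei (12, 23 and 6 UMIs). In this class edgeR did not call it (log2 fold change 0.85, adjusted p = 0.493). Madcam1 had 5 UMIs in endothelial-like nuclei, 3 of them in controls, and 5 in lymphatic-endothelial-like nuclei, all in knockouts.

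B-cell-like nuclei carried most of Cxcr5 and Cr2. They held 70.9% of the 3347 UMIs of Cxcr5, which was found in 24.7% of them at a median depth of 1375 UMIs and in 0.807% of adipocyte-like nuclei at 6219.5 UMIs, a class not known to use the gene, which gives the background. They held 69.5% of the 13054 UMIs of Cr2, found in 50.3% of them and in 5.50% of adipocyte-like nuclei. Over classes, the level of Cxcr5 was 193 ± 32.3 CPM in B-cell-like nuclei and 24.2 ± 11.8 CPM in T-cell-like nuclei (SD, n = 6 libraries for both), a step larger than the spread. For Cr2 the levels of lymphoid-stroma-like (761 ± 446 CPM, n = 3) and B-cell-like nuclei (668 ± 134 CPM, n = 6) differed by less than their spread.

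Inside the B-cell-like class, Cr2 stood at 520.2, 571 and 596 CPM in controls 1, 2 and 3, against 887, 715 and 720.4 CPM in knockouts 1, 2 and 3. The groups did not overlap, beside 8.0% of the genes of the class, and knockout 1 was highest. The log2 fold change was 0.46 (SE 0.136, edgeR adjusted p = 0.185). Cxcr5 had 149, 229.8 and 160.03 CPM against 217, 190.3 and 209.9 CPM, which overlapped (0.29, adjusted p = 0.620). Ltb had 214, 289 and 206 CPM against 390.2, 379 and 279 CPM, with knockout 3 below flox control 2 (0.64, SE 0.161, adjusted p = 0.107).

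Lta (log2 fold change 0.84, adjusted p = 0.467) and Ccr7 (-0.26, adjusted p = 0.861) did not pass in B-cell-like nuclei either. In this class edgeR called 0 of the 5 members tested, beside 0.215% of its genes; 3 of the 5 had an unadjusted p under 0.05 (beside 9.35%) and DESeq2 called 0 of 5 (beside 0.204%). Ltb passed edgeR without knockout 3 (0.78, adjusted p = 0.0287).

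An unnamed cluster of 578 nuclei, 448 of them in knockout 3, carried 1398 UMIs of Cr2, 419 of Cxcr5, 762 of Ltb and 156 of Ccr7. Its leading genes were Ighg1, Mybl1 and Jchain, and all 9 B-cell and all 9 T-cell markers stood out in it, at a median of 4327.5 UMIs per nucleus. Cr2 was found in 59.2% of its nuclei, Ltb in 60.4%, Cxcr5 in 38.9% and Ccr7 in 20.4%. The part of doublets of B and T cells in this cluster was not tested.

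Ccr7 was divided between lymphocytes and dendritic cells. T-cell-like nuclei held 30.9% of its 1388 UMIs, B-cell-like nuclei 30.0% and dendritic-cell-like nuclei 19.6%. The dendritic-cell-like class is 1 cluster in which 6 of 9 dendritic-cell markers and 7 of 7 markers of plasmacytoid dendritic cells stood out, led by Apol7c, Dscaml1 and Grm8. Per nucleus it had the largest share of these 4 classes, with Ccr7 in 34.6% of 379 nuclei, against 12.4% of T-cell-like, 5.17% of B-cell-like and 0.342% of adipocyte-like nuclei. Its level was 245 ± 78.6 CPM in dendritic-cell-like nuclei (SD, n = 3 libraries, all knockouts, since each control had under 20 such nuclei), 70.6 ± 13.3 CPM in T-cell-like and 45.3 ± 21.5 CPM in B-cell-like nuclei (n = 6 for both), and the latter pair differed by less than the sum of their spreads.

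In T-cell-like nuclei Ccr7 had 58.5, 62.6 and 59.7 CPM in controls 1, 2 and 3, against 84.7, 68.8 and 89.4 CPM in knockouts 1, 2 and 3, so that the groups did not overlap (log2 fold change 0.47, SE 0.226, edgeR adjusted p = 0.308). None of the 271 lymphoid-stroma-like nuclei, which carried most of the UMIs of its ligand Ccl19, had a UMI of Ccr7, which allows a share with a UMI of up to 1.11%.

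The lymphotoxins were carried by both lymphocyte classes. Ltb was found in 37.9% of B-cell-like and 43.5% of T-cell-like nuclei, at median depths of 1375 and 1620 UMIs, against 1.78% of adipocyte-like nuclei at 6219.5 UMIs, and these classes held 51.5 and 28.0% of its 7619 UMIs. Lta was rarer, in 3.19% of B-cell-like and 3.76% of T-cell-like nuclei against 0.355% of adipocyte-like nuclei. The level of Ltb was 304 ± 117 CPM in T-cell-like and 293 ± 78.4 CPM in B-cell-like nuclei, and that of Lta 18.7 ± 8.84 and 18.3 ± 7.59 CPM (SD, n = 6 libraries each), which differ by far less than the spread. NK-cell-like nuclei followed for Ltb at 62.7 ± 26.7 CPM.

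In T-cell-like nuclei Ltb rose. It had 231 CPM in flox control 1, 188 in flox control 2 and 239 in flox control 3, against 510.2, 306 and 353 CPM in knockouts 1, 2 and 3, without overlap, beside 9.82% of the genes of the class. The log2 fold change was 0.83 (SE 0.206, edgeR adjusted p = 0.0443), 1 of 3 members tested in this class, beside 3.44% of its genes called in either direction and 0.885% called higher. After thinning to 1000 UMIs, Ltb was found in 16.5, 16.9 and 17.9% of T-cell-like nuclei of the controls and in 38.9, 23.7 and 28.5% of those of the knockouts, while the unthinned shares of 24.6, 21.9 and 32.7% and 53.3, 32.5 and 42.9% overlapped.

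The call for Ltb in T-cell-like nuclei depended on single libraries. It was lost without flox control 1, 2 or 3 (edgeR adjusted p = 0.234, 0.154 and 0.119) and without knockout 1 (0.0829, at a log2 fold change of 0.57), and kept without knockout 2 (0.00345) or knockout 3 (0.0288). It was also lost at Leiden resolution 2 (0.0554), with classes by marker score (0.0683) and with the 10 genes among the variable genes (0.0695). The 9 B-cell markers summed in this class to 277, 332 and 522 CPM in controls 1, 2 and 3, against 449.9, 324 and 401 CPM in knockouts 1, 2 and 3, with overlap. The 9 T-cell markers summed to 3865, 4455 and 3731 against 5611, 4877 and 5103 CPM, higher in every knockout library, and their part in the result was not tested. The mix of the class also differed. A smaller cluster in it, led by Cd163l1 and Il23r, held 44, 18 and 38 of its 207, 105 and 171 nuclei in controls 1, 2 and 3. In knockouts 1, 2 and 3 that cluster held 80, 37 and 54 of 1302, 394 and 776. The part of this mix in the values of Ltb and Ccr7 was not tested.

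In the other classes with enough nuclei none of the 10 genes was called by edgeR, with 0 of 4 tested in ASPC-like nuclei (beside 0.385% of their genes), 0 of 8 in adipocyte-like nuclei (0.116%) and 0 of 3 in macrophage-like nuclei (0.0564%). No member had enough counts for the test in NK-cell-like, monocyte-like or mural-like nuclei. In the ASPC-like, adipocyte-like and macrophage-like classes 4 of the 15 tests had an unadjusted p under 0.05, beside 11.1, 17.7 and 14.2% of their genes. DESeq2 called 3 of 15, beside 1.36, 6.35 and 3.45%. Cr2 in adipocyte-like nuclei was at 5.94, 5.98 and 7.34 CPM in controls 1, 2 and 3, against 11.3, 10.2 and 10.7 CPM in knockouts 1, 2 and 3 (log2 fold change 0.70, SE 0.116, edgeR adjusted p = 0.0864, DESeq2 adjusted p = 0.00226). Ltb in macrophage-like nuclei rested on 8, 4 and 6 UMIs against 24, 19 and 15 (log2 fold change 2.72, edgeR adjusted p = 0.0510), in a class where the B-cell markers summed to 331, 355 and 402 against 795, 412 and 628 CPM. There Ltb passed the filter on low counts through the knockout libraries alone, where it is high, so this p is no support beyond the counts. Ltb in ASPC-like nuclei was at 1.18, 0.673 and 2.34 against 10.2, 2.46 and 5.25 CPM (2.13, adjusted p = 0.235). The groups did not overlap for these 3, beside 15.3% of genes in adipocyte-like, 8.43% in macrophage-like and 8.42% in ASPC-like nuclei.

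**Figure D5:**
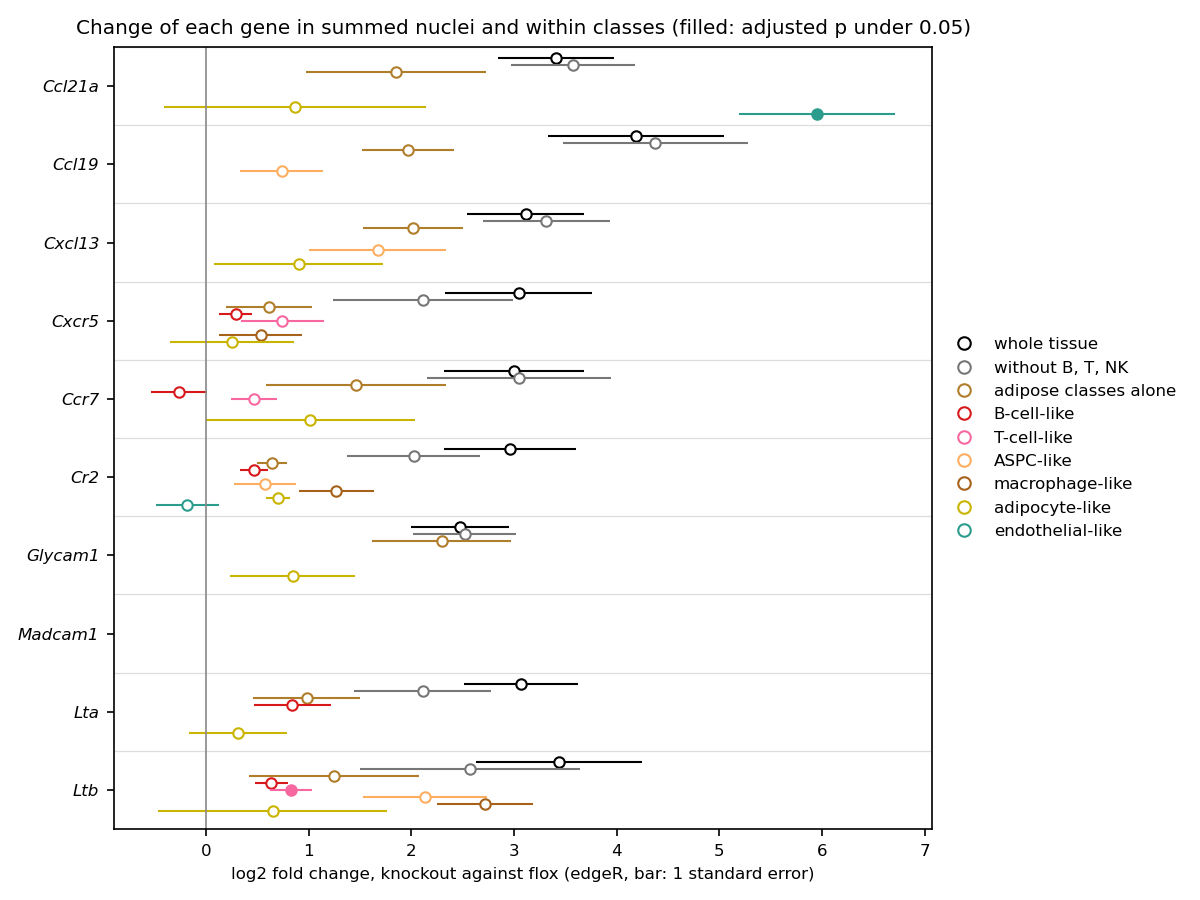
Log2 fold change, knockout against flox control, of each gene (edgeR, horizontal axis) over all summed nuclei and within classes, with bars of 1 standard error and filled points for an adjusted p under 0.05. Whole-tissue values lie between 2.47 and 4.19 and are open, and the filled points are Ltb in T-cell-like nuclei (0.83) and Ccl21a in endothelial-like nuclei (5.95).

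The groups were then compared after the named lymphocyte classes had been taken out, with the unnamed cluster of 578 nuclei still in. Without B-cell-like, T-cell-like and NK-cell-like nuclei, 5 of the 10 genes still lay higher in every knockout than in every control (Ccl21a, Ccl19, Cxcl13, Glycam1 and Lta), beside 18.8% of genes. The stromal and vessel genes kept fold changes close to those of whole tissue, with 3.58 for Ccl21a, 4.38 for Ccl19, 3.32 for Cxcl13 and 2.52 for Glycam1 on the log2 scale. Those of Cr2, Cxcr5, Lta and Ltb were 2.02, 2.11, 2.11 and 2.57, against 2.97, 3.05, 3.07 and 3.44 in whole tissue, while that of Ccr7 was 3.05, against 3.00. With edgeR, 0 of 9 were called (beside 0.0158% of genes), at adjusted p-values from 0.124 to 0.275, and 7 of 9 had an unadjusted p under 0.05 (beside 18.3%).

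The unnamed cluster was then left out as well, a setting added after seeing the data. The fold changes of Cxcr5, Lta, Cr2 and Ltb were 0.92, 1.14, 1.33 and 1.55, and the groups overlapped for all 4. That of Ccr7 was 2.75, and those of Ccl21a, Ccl19, Cxcl13 and Glycam1 were 3.64, 4.45, 3.38 and 2.59. These 5 genes lay higher in every knockout than in every control, beside 17.7% of genes. With edgeR 0 of 9 were called (beside 0.0476% of genes), at adjusted p-values from 0.0861 to 0.402, and 6 of 9 had an unadjusted p under 0.05 (beside 18.8%).

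In the adipocyte-like, ASPC-like, endothelial-like, mural-like and macrophage-like nuclei alone, a set chosen after seeing the data, 4 of the 10 lay higher in every knockout (Ccl21a, Ccl19, Cxcl13 and Cr2), beside 16.1% of genes. Log2 fold changes ran from 0.62 for Cxcr5 to 2.30 for Glycam1, and edgeR called 0 of 9 (beside 0.463% of genes), with 4 of 9 at an unadjusted p under 0.05 (beside 20.4%).

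The other genes of the same pathways were described with 7 lists, and none of their 89 genes tested in whole tissue passed edgeR, while 71 of the 89 were higher in the knockouts, beside 51.5% of all genes. DESeq2 called 44 higher and 5 lower, beside 18.2% of all genes called. Without knockout 2, edgeR called 44 higher and 5 lower of 91, beside 17.4% of all genes. The median log2 fold change of all 19276 genes was 0.01, that of the members 3.07. Of the ligands and receptors that act with Ccr7 and Cxcr5, 12 of 12 tested were higher (median 0.46), among them Gpr183, the oxysterol receptor that positions B cells (1.84, edgeR adjusted p = 0.0594), and Cyp7b1, which makes its ligand (0.62, adjusted p = 0.0603).

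Of the lymphotoxin receptor and noncanonical NF-kB genes, 15 of 20 were higher (median 0.67), with Tnfsf14, which encodes the related ligand LIGHT, at 2.04 and the costimulatory receptor Cd40 at 1.91 (edgeR adjusted p = 0.0594 and 0.0600). Of the high endothelial venule genes 12 of 16 were higher (median 0.29), with E-selectin, Sele, at 2.82 and Emcn, a sialomucin of capillaries and veins, at -0.76 (adjusted p = 0.0655 and 0.0664). Lymphocyte homing receptors were higher for 8 of 10 (median 1.40), with the sphingosine phosphate receptor S1pr4 at 2.45.

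Reticular and follicular dendritic stroma genes were higher for 12 of 16 (median 0.47), with the BMP ligand Bmp3 at -0.72 and Tnfsf13b, which encodes the B-cell survival factor BAFF, at 0.49. Receptors of follicular B cells were higher for 10 of 11 (median 2.99), with Cd72 at 2.06. Germinal centre genes were higher for 9 of 11 (median 0.93), with the inhibitory receptor Pdcd1 at 3.08 and the death receptor Fas at -0.47. B-cell-like and T-cell-like nuclei, of which several of these genes are typical, were more numerous in the same libraries.

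The genes most like each member were taken from the correlation of log2(CPM + 1) over the 35 clusters, a description of points that share libraries and depth. Ccl21a was most like Pcdh15 (Pearson r = 0.88), Ccl19 and Cxcl13 like Syt13 (0.83 and 0.79), Cxcr5 like Slamf6 (0.89), Ccr7 like Slamf1 (0.87), Cr2 like Fcer2a (0.87), Lta like Gm20098 (0.88) and Ltb like Zfp831 (0.93). Glycam1 was most like Ccl21a (0.77), and Cxcl13 had Ccl19 among its nearest 3 (0.76). Among the members, Ltb and Cxcr5 stood at 0.83, Ccl21a and Ccl19 at 0.71, and Cxcl13 and Cxcr5, a ligand and its receptor carried by different nuclei, at 0.24.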

How the data were processed

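The authors deposited 1 matrix of UMI counts for each library, made with Cell Ranger 7.1, per the submitters' processing notes. The builds listed there are mm10 and GRCh38, although each entry of the matrices is a mouse gene. The treatment of intronic reads is not given in the sources used here. Entries that share a symbol were summed (32285 entries, 32245 symbols).

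Filtering kept barcodes with 500 or more genes and no more than 5% of UMIs from mitochondria, and the barcodes with the highest Scrublet scores were removed at 0.8% per 1000 barcodes (scanpy 1.11.5). The 10 genes were kept out of the 3000 variable genes, and 40 principal components and 20 neighbours gave 35 Leiden clusters at resolution 1. A cluster took a class name when at least 3 markers and 50% of a list stood 2-fold above their mean over the other clusters (5 CPM added). That list also had to lead the next list by 20 percentage points. Lists of related types (such as dendritic and plasmacytoid dendritic cells) were exempt from the lead. Among them the list with more of the cluster's 10 leading genes gave the name, a rule settled after seeing the cluster markers. This left 4 clusters unnamed, and no integration across libraries was used.

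Counts were summed per library, over all kept nuclei and within classes of at least 20 nuclei in every library, and tested by the robust quasi-likelihood fit of edgeR 4.0.16 (R 4.3.3) with TMM factors after filterByExpr, adjusted by Benjamini-Hochberg over all genes of a table at a threshold of 0.05. The test was checked on simulated counts. Log2 fold changes are knockout over control, and levels in CPM are per 1e6 summed UMIs without TMM factors. Alternatives were DESeq2 1.42.0, library totals, no filter on low counts, a replicate block, leaving out each library, resolution 2, classes by marker score, the 10 genes among the variable genes, nuclei with at least 1000 genes, no removal of doublets, and sums without lymphocyte classes, also without an unnamed cluster with B-cell and T-cell markers. Single values were compared by exact permutation over libraries. The summed counts of kept nuclei were 33173423 to 48338362 UMIs per library, and intervals are 95% exact ones. Upper limits for shares with a count of 0 nuclei are approximate, as 3 divided by the number of nuclei.

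The genes named were the 10 members, from each of the 7 lists the 2 genes with the smallest p where none passed the test, and the genes most like each member (at least 100 UMIs). Of these, 1 gene is not reported here. The members, the lists and the comparisons were chosen with earlier results of these data known.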

Additional observations from a re-analysis of the deposited data

How the results depend on the processing

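The direction of the whole-tissue change held for every member in all 144 values tried (log2 fold changes of 0.62 to 5.06). Of 501 fold changes recomputed in whole tissue and within classes, 447 kept their direction and their side of the threshold, 11 lost a call, 37 gained one and 6 reversed. The reversed values were all of genes that were not called: Cxcr5 in adipocyte-like nuclei (-0.08 without flox control 2, -0.09 without knockout 1; -0.09 to 0.91 with 1 library left out), Lta in adipocyte-like nuclei (-0.02 without knockout 1), Cxcr5 in macrophage-like nuclei (-0.03 without knockout 3; -0.03 to 0.87 with 1 library left out) and Cr2 in endothelial-like nuclei (0.77 with classes by marker score, 1.87 without removal of doublets). Whole-tissue calls of the members were 0 as reported (beside 0.0415% of genes) and 9 with DESeq2 (18.2%). Without the shallow adipocyte-like cluster there was 1, beside 82 genes higher and 195 lower of 19074. With 1 library left out the calls were 0 to 10, the 10 being without knockout 2 (17.4%). The 10 include Madcam1, which passed the filter on low counts there through knockouts alone. Calls within classes were 2 as reported, 4 with DESeq2, 9 with no filter on low counts, 1 at Leiden resolution 2, 0 with classes by marker score, 1 in nuclei with at least 1000 genes, and 0 to 3 with 1 library left out. Calls among the list genes were 0 as reported, 49 with DESeq2, 1 with no filter, 1 in the adipose classes alone, 2 without the shallow cluster, and 0 to 49 with 1 library left out. Members whose groups did not overlap were 9 as reported, 5 without the lymphocyte classes, 5 also without the unnamed B-T cluster (added after seeing the data), 4 in the adipose classes alone, and 9 to 10 with 1 library left out. Members whose share of carriers was higher in every knockout library were 9 as reported, 5 in nuclei with at least 1000 genes, and 9 to 10 with 1 library left out. Calls over all genes moved with the setting too. In T-cell-like nuclei they were 62 higher and 179 lower of 7008 as reported and 42 and 158 of 7008 with DESeq2. With no filter they were 276 and 285 of 19336. Where no share over all genes is given, the counts of members are no measure of an excess among them. Of 100 differences in shares recomputed, 84 moved by less than the spread between libraries, 16 moved by more and 0 reversed. The cause of these shifts was not tested.

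With the replicate number as a block, edgeR called 7 members and 19 list genes in whole tissue (beside 5.05% of genes). It called 3 members within classes, a count without a share over all genes. Libraries of the same number had correlations of 0.0961, 0.0938 and 0.0750 between their deviations. Those of a control and a knockout of different numbers ran from -0.247 to 0.129, a range that holds these values. The correlations therefore do not show that the numbers mark pairs. Fewer than 20 NK-cell-like nuclei with at least 1000 genes in some library kept that class from being run. Members with under 100 UMIs, such as Madcam1 with 83, are limited by depth.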
